A study of Homo sapiens with 6 samples.

Results

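The genes of the DNA replication machinery were followed in akirin2 KO and WT HL60 cells. The set held 48 genes of the 17499 in the table, taken by symbol from a fixed list that covered the origin licensing factors, the MCM helicase family and its activators, the replicative polymerases with primase, the sliding clamp and its loader, the single-strand binding and strand joining proteins, ribonucleotide reductase, and the regulators of S phase entry E2F1, E2F2, CCNE1 and CCNE2. All 48 were found and all 48 passed the minimum mean of 10 normalized counts. Their mean levels ran between 137.0 and 17279 normalized counts, with a median of 2137, against a median of 387 over the 17425 genes tested.

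HL60 is a human promyelocytic leukemia cell line. The KO cells (genotype label AKR2 knock down) had been transfected with a ribonucleoprotein of Cas9 and a guide RNA to akirin2, which encodes a nuclear transcription cofactor without DNA-binding activity of its own, and were used as an edited pool without clonal expansion. The WT cells had been transfected with SpCas9 alone. Both were grown in RPMI medium with fetal bovine serum, and each group had 3 libraries of polyA-selected RNA. The libraries of a group are described as biological replicates. The sources do not say that they came from separately edited cells, so the p-values below measure the spread between these libraries.

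DNA replication is prepared in G1, when the origin recognition complex, CDC6 and CDT1 load the ring of MCM2 to MCM7 onto origins, and it starts in S phase, when CDC45 and the GINS complex join the ring to form the active helicase. Primase with polymerase alpha then lays down primers, polymerases epsilon and delta extend them behind the PCNA clamp, and nucleases and DNA ligase join the pieces. Many of these genes are known targets of the E2F transcription factors, which bind GC-rich sites in promoters and are held in check by the retinoblastoma proteins until cyclin-dependent kinases phosphorylate them.

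To show how such promoters read, the bases before the RefSeq transcription start (build GRCh38.p14) are printed for 8 of the genes: the licensing pair CDT1 and GMNN, the regulators E2F1, E2F2 and CCNE1, and PRIM1, MCM6 and PCNA. Capitals mark exact matches, on either strand, to 4 E2F spellings, TTTCCCGC, TTTCGCGC, TTTGGCGC and TTTGCCGC. Each stretch reads 5′ to 3′ on the gene's strand, is 120 bases long and ends before the gene's GENCODE 29 exons. For CDT1 it is instead 30 bases taken round its E2F match, because GENCODE 29 places them inside the gene's first exon. The CDT1 stretch was therefore bound to hold a match.
CDT1, chr16:88803743-88803772, plus strand: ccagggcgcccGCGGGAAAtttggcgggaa
GMNN, chr6:24774811-24774930, plus strand: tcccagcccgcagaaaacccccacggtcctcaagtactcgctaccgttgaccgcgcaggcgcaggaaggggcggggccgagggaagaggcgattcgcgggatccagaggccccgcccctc
E2F1, chr20:33686405-33686524, minus strand: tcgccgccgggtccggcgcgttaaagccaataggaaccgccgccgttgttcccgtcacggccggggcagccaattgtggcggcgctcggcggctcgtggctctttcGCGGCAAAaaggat
E2F2, chr1:23531234-23531353, minus strand: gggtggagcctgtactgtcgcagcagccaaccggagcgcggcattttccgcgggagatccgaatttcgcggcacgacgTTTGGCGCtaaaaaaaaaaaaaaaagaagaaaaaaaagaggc
CCNE1, chr19:29811778-29811897, plus strand: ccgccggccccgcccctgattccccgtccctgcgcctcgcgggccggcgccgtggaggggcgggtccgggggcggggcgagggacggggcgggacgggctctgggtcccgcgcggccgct
PRIM1, chr12:56752374-56752493, minus strand: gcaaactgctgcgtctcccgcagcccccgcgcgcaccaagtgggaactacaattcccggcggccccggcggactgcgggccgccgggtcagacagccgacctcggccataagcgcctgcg
MCM6, chr2:135876444-135876563, minus strand: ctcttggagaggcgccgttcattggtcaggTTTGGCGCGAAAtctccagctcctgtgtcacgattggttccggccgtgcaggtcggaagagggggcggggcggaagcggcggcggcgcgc
PCNA, chr20:5126627-5126746, minus strand: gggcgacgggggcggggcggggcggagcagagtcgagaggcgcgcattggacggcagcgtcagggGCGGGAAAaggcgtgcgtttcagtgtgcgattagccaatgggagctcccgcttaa
In MCM6 the capitals are a pair of overlapping matches on opposite strands, and overlapping matches were counted separately. The MCM6 window holds 4 matches in all, of which 2 are printed. E2F1 holds 1 more match nearer its start, beyond the printed stretch.

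Of the 48 genes, 41 matched a promoter in the RefSeq table, which gives 250 bases before and 50 after each start. No promoter was found for MCM4, GINS4, POLD3 and RPA3 of the higher genes, for MCM5 of the lower genes, or for RPA2 and CCNE2. More of the higher than of the lower genes are therefore missing from the comparison below. Taking the first start listed for each gene, 20 of the 41 promoters (48.8%) held at least 1 of the 4 E2F spellings, against 908 of 27305 RefSeq promoters (3.33%). The share was similar in genes that went up, went down or did neither. Matches stood in 7 of the 13 promoters of genes that were higher, in 8 of the 16 of genes that were lower, and in 5 of the 12 of genes that did not pass the test. The printed stretches do not show this. All printed genes with a match were lower in KO cells, and higher genes with a match, such as POLE2 and RFC3, are not printed. The letters CCAAT, read on both strands, were in 24 of the 41 promoters (58.5%), against 35.7% of RefSeq promoters. Here the groups were less alike, with 5 of 13 among the higher genes and 11 of 16 among the lower genes, and this difference was not tested. The cell cycle element TTTGAA or TTCGAA was in 2 of the 41 (4.88%), against 16.6% of all.

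Levels are given below as normalized counts, that is, reads after scaling by the size factor of their library. The libraries held between 36096459 and 47607520 reads in the listed genes in KO cells and between 41419318 and 52244122 in WT cells. AKIRIN2 itself (chr6:87675072-87702209) had 1613, 1731 and 1651 in KO cells, against 2378, 2450.4 and 2420.2 in WT cells (log2 fold change -0.54, SE 0.0487, limma adjusted p = 1.3e-08; exact two-sided permutation p = 0.1, the smallest that 3 against 3 libraries allow). The targeted mRNA was therefore lower in every KO library but well above 0. Among promyelocyte markers, 6 of 7 were higher in KO cells, beside 30.3% of all genes tested. The 7 markers summed to 1024226 to 1059587 in KO against 350667 to 370726 normalized counts in WT. The T cell markers with values were 2 of 5, at summed levels of 100.4 to 108.7 in KO and 605.5 to 629.1 in WT, and the 3 monocyte markers summed to 171.8 to 187.3 in KO and 906.8 to 1118 in WT. CD14 and FCGR3A of that list were lower (log2 fold changes -3.05 and -2.52), and CSF1R was higher (1.44, limma adjusted p = 5.4e-05). Fibroblast markers (4 of 6 with values) summed to 5224 in the library WT1. In the other 5 they summed to between 300.3 and 769.6, the highest being KO3. FN1 made up 4609 of the WT1 sum, and COL1A1 had 519 in WT1 against 43.9 to 59.3 in the others. COL1A2 and COL3A1 were not raised in WT1. Epithelial markers (2 of 4 with values) summed to 14.1 to 66.0 in KO and 181.5 to 375.5 in WT. Of these CDH1 was lower (log2 fold change -4.01, limma adjusted p = 6.8e-12), and KRT18, at 173 in WT1, did not pass. B cell markers (2 of 3 with values) summed to 238.5 to 253.1 in KO and 156.8 to 177.4 in WT. The part of these marker differences in the results below was not tested. Without WT1, 46 of the 48 genes kept their call, and PCNA and POLA2 lost theirs (limma adjusted p = 0.052 and 0.057). With WT1 and KO3 both left out, 43 kept their call. PCNA, POLA2, GINS3 and RRM1 then lost theirs (limma adjusted p = 0.22, 0.083, 0.064 and 0.063), and ORC4 passed as higher (limma adjusted p = 0.042).

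Across the machinery, 17 genes were higher in KO cells and 17 lower, and 14 did not pass (limma, Benjamini-Hochberg adjusted p under 0.05 over all genes). The 34 called genes were 70.8% of the set, against 60.6% of all genes tested, where 30.3% were higher and 30.3% lower. KO and WT libraries did not overlap in 38 of the 48 genes (79.2%), against 65.2% of all genes. Most of these differences were small. The median log2 fold change of the set was -0.0073, beside -0.0066 over all genes, and the median absolute value was 0.215, beside 0.389. Absolute log2 fold changes above 0.5 were found in 7 of the 48 genes (14.6%), against 40.2% of all genes, and above 1 in CDT1 and E2F2 (4.17%), against 15.4%. The spread between libraries of a group was narrow, with a coefficient of variation between 0.933% and 9.52% and a median of 3.27%. In bulk RNA of this kind a smaller share of cells in S phase and less RNA per cell cannot be told apart. Coverage along transcripts may also differ between the groups. In the exon counts that the study reported for ACTB, KO libraries had more reads toward the transcript end and fewer toward its start than WT libraries. The part of such a coverage difference in the small changes given here was not tested.

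**Figure D1:**
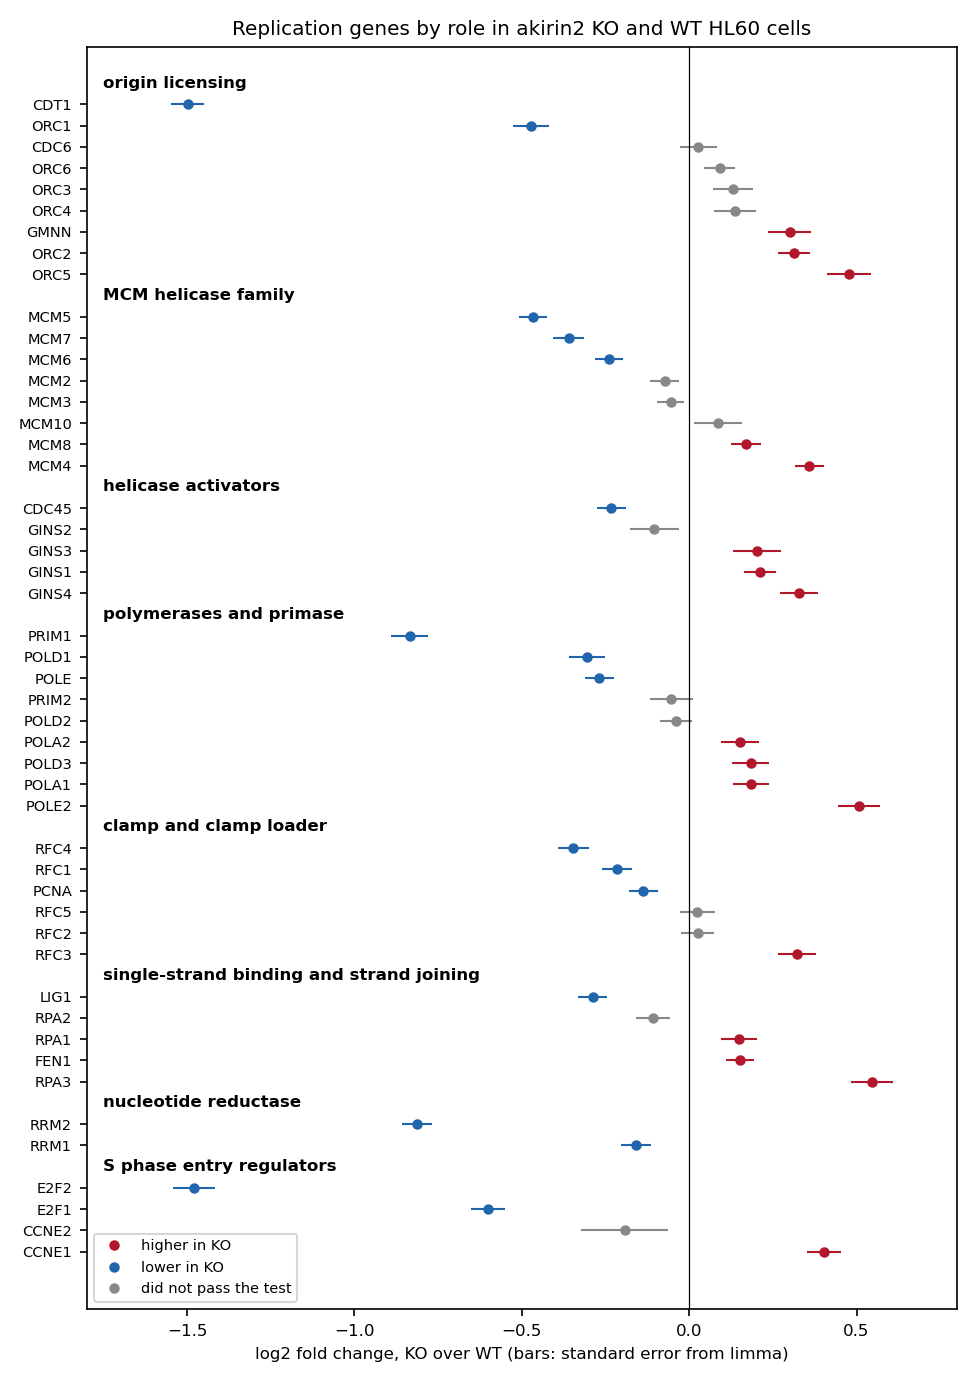
Log2 fold change, KO over WT, of the 48 replication genes on the horizontal axis, with genes grouped by role down the page. Points are limma estimates on the log2(normalized count + 1) scale and bars are standard errors. Higher and lower genes stand side by side in 7 of the 8 role groups, and CDT1 (-1.50) and E2F2 (-1.48) lie farthest from 0.

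Origin licensing gave the gene with the largest change of the set. CDT1 (chr16:88803213-88809258), the factor that brings the MCM ring to origins, had 5016, 4822 and 5231 in KO cells, against 13327, 15090.2 and 14180.4 in WT cells (log2 fold change -1.50, SE 0.0489, limma adjusted p = 4.1e-15). Over the whole promoter window CDT1 holds 1 match to an E2F spelling, round which its printed stretch was taken, and GMNN holds none. The CDT1 groups lay far apart, with the KO mean at 0.354 of the WT mean. GMNN (chr6:24774931-24786099), geminin, the protein that binds CDT1 and blocks its action after S phase has begun, moved the other way, with 1328, 1349 and 1224 in KO cells, against 1157, 1004 and 1011 in WT cells (log2 fold change 0.30, SE 0.0645, limma adjusted p = 5.0e-04). Its groups were close, and they did not overlap. The ratio of CDT1 to GMNN normalized counts within a library was 3.88 ± 0.361 in KO cells and 13.5 ± 1.81 in WT cells (SD, n = 3 each). The ratio ran between 3.58 and 4.28 in KO libraries and between 11.5 and 15.0 in WT libraries. This pair was chosen after its values were seen, and the ratio was not tested.

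The 6 subunits of the origin recognition complex, the platform on which licensing takes place, did not move as a unit. ORC1, the large ATPase subunit, had 1170.5, 1163 and 1112 in KO cells, against 1605, 1659 and 1520.0 in WT cells (log2 fold change -0.47, SE 0.0546, limma adjusted p = 3.7e-07). ORC5, an ATP-binding subunit, had 802, 822 and 797 in KO cells, against 555, 613 and 572 in WT cells (log2 fold change 0.48, SE 0.0656, limma adjusted p = 3.6e-06). ORC2, a core subunit, had 2135, 2141 and 2199.7 in KO cells, against 1760.2, 1699.5 and 1749 in WT cells (log2 fold change 0.31, SE 0.0476, limma adjusted p = 1.2e-05). In each of these genes KO and WT libraries stood apart, with ORC1 lower and ORC2 and ORC5 higher in KO cells. ORC3, ORC4 and ORC6 had log2 fold changes of 0.13, 0.14 and 0.091 and did not pass the test (limma adjusted p = 0.062, 0.067 and 0.1). Their calls depended on the processing, and with equal library totals all of them passed as higher (limma adjusted p = 0.012, 0.015 and 0.0077). With the length trend removed, ORC3 and ORC4 passed as higher (limma adjusted p = 0.037 and 0.034). ORC4 also passed without KO3 and without both WT1 and KO3 (limma adjusted p = 0.048 and 0.042). ORC3, whose values are given after they were seen because of its place, lies 7618 bases from AKIRIN2 on chromosome 6, and its libraries did not overlap, with 887, 931 and 901 in KO cells, against 811, 833 and 838 in WT cells. CDC6, the ATPase that completes the loading platform, had the smallest change of the group, with 1659, 1811 and 1665 in KO cells, against 1729, 1714 and 1594 in WT cells and a log2 fold change of 0.028 (95% interval -0.087 to 0.14). Its libraries overlapped.

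The MCM family was mixed as well. MCM2 to MCM7 form 1 ring with each subunit present once. Of these subunits 1 was higher in KO cells, 3 were lower and 2 passed in neither direction, beside 30.3% of all genes in each direction. MCM5 had 7992, 7672 and 7867 in KO cells, against 10615, 11212 and 10674 in WT cells (log2 fold change -0.47, SE 0.0419, limma adjusted p = 1.2e-08). MCM7 had 15371, 14966 and 15041 in KO cells, against 19187, 20723 and 18387 in WT cells (log2 fold change -0.36, SE 0.0465, limma adjusted p = 1.6e-06). MCM6, whose promoter carries the overlapping matches shown above, had 5049, 5279.8 and 5111 in KO cells, against 6231, 6002 and 5996 in WT cells (log2 fold change -0.24, SE 0.0422, limma adjusted p = 6.6e-05). All 3 were lower in every KO library than in any WT library. MCM4, by contrast, was higher in every KO library, with 16278, 16734 and 15994 in KO cells, against 13102, 13001 and 12132 in WT cells (log2 fold change 0.36, SE 0.0437, limma adjusted p = 7.5e-07). MCM3 had 10771, 10851 and 10651 in KO cells, against 11264, 11258 and 11016 in WT cells, which did not overlap but differed little (log2 fold change -0.055, 95% interval -0.14 to 0.028, limma adjusted p = 0.24). MCM2 had a log2 fold change of -0.073 (95% interval -0.17 to 0.019) and passed only without WT3 (-0.11, limma adjusted p = 0.027). It shares 22.7% of its exon bases with an antisense gene.

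Because counts grow with transcript length, the levels of the subunits were compared per kb of the principal GENCODE 29 transcript. MCM7 was the most abundant subunit in both groups, with 5115 ± 72.9 normalized counts per kb in KO cells and 6572 ± 401 in WT cells. MCM6 was the least abundant, with 1378 ± 31.9 in KO and 1627 ± 35.9 in WT. The order between them differed. In KO cells MCM4 came second with 3905 ± 89.2 per kb, followed by MCM3, MCM2 and MCM5. In WT cells MCM3 came second, and MCM5 (3066 ± 93.1 per kb) and MCM4 (3047 ± 128 per kb) followed as neighbours whose libraries overlapped. No other neighbours in either order had overlapping libraries. The ratio of MCM4 to MCM5 normalized counts was 2.03 to 2.18 in KO libraries and 1.14 to 1.23 in WT libraries, and the ratio of MCM4 to MCM7 was 1.06 to 1.12 in KO and 0.627 to 0.683 in WT. These pairs were chosen after their values were seen and carry no test.

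**Figure D2:**
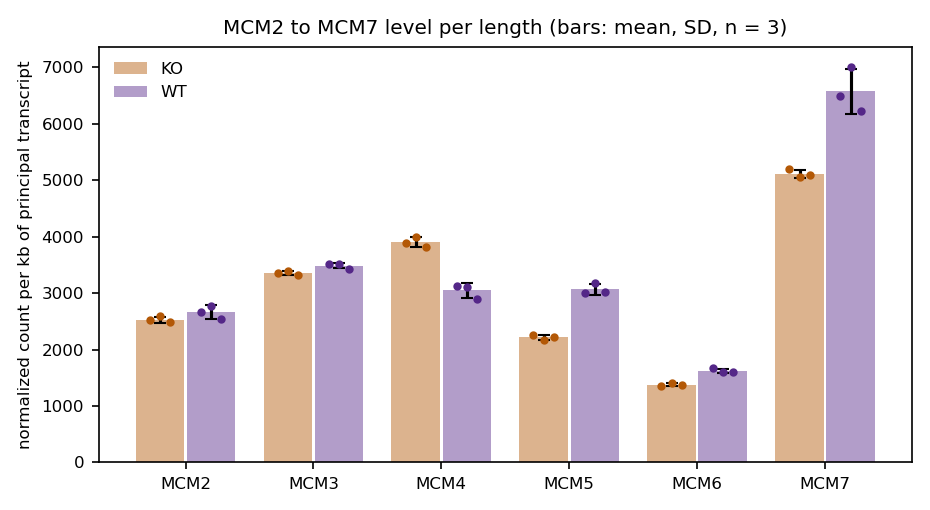
Normalized counts per kb of the principal transcript for MCM2 to MCM7 in KO (left bars) and WT (right bars) cells. Bars are means, points are single libraries and error bars are SD (n = 3). MCM4 stood above MCM3 and MCM5 in KO cells, with a mean of 3905, and overlapped MCM5 in WT cells, with a mean of 3047.

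Outside the ring, MCM8, which works with MCM9 in recombination at stalled forks, had 4695, 4845 and 4936 in KO cells, against 4317, 4452 and 4095 in WT cells (log2 fold change 0.17, SE 0.0453, limma adjusted p = 0.003). MCM10, which binds the helicase as origins fire, had overlapping libraries (log2 fold change 0.087, limma adjusted p = 0.31).

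Of the 5 activators of the helicase, 3 were higher in KO cells, 1 was lower and 1 did not pass, beside 30.3% of all genes in each direction. CDC45, which holds the ring and GINS together, was lower, with 3417, 3284 and 3339 in KO cells, against 3851, 4025 and 3919 in WT cells (log2 fold change -0.23, SE 0.0436, limma adjusted p = 1.3e-04). Of the GINS subunits, GINS4 had 1483, 1414 and 1404 in KO cells, against 1129, 1207 and 1092 in WT cells (log2 fold change 0.33, SE 0.0563, limma adjusted p = 5.1e-05). GINS1 had 2584, 2412 and 2524 in KO cells, against 2199, 2126 and 2164 in WT cells (log2 fold change 0.21, SE 0.0474, limma adjusted p = 7.2e-04). In these 3 genes the groups were separate, CDC45 being lower and GINS1 and GINS4 higher in KO cells. GINS3 had 620.4, 637 and 675 in KO cells, against 589.5, 571 and 519.5 in WT cells (log2 fold change 0.20, SE 0.0721, limma adjusted p = 0.021), a call that was lost without KO3, without WT3, without both KO3 and WT1 and without the variance trend (limma adjusted p = 0.1, 0.095, 0.064 and 0.053). GINS2 had 596, 713 and 630.4 in KO cells, against 718, 691 and 671 in WT cells, and its libraries overlapped (log2 fold change -0.10, limma adjusted p = 0.23). GINS4 shares 21.2% of its exon bases with an antisense gene, and a strand setting for the counting was not given in the sources used here.

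Among the polymerases the catalytic and the accessory subunits often differed. PRIM1 (chr12:56731596-56752373), the catalytic subunit of primase, had 828, 873 and 814 in KO cells, against 1525, 1450.0 and 1512 in WT cells (log2 fold change -0.83, SE 0.0561, limma adjusted p = 1.7e-10). No other gene of this group fell as much, and the KO mean was 0.56 of the WT mean. PRIM1 shares 14.9% of its exon bases with another gene on the same strand. POLA1, the catalytic subunit of polymerase alpha that works in the same complex, had 1571, 1674 and 1614 in KO cells, against 1483, 1438 and 1353 in WT cells (log2 fold change 0.19, SE 0.0539, limma adjusted p = 0.0059). PRIM1 thus stood at 0.504 to 0.527 of POLA1 in KO libraries and at 1.01 to 1.12 of POLA1 in WT libraries, a pair chosen after its values were seen. The other 2 members of the complex had smaller differences. PRIM2, the large subunit of primase, had a log2 fold change of -0.053 (95% interval -0.19 to 0.08). POLA2, the second subunit of polymerase alpha, had 0.15 and overlapping libraries. Its call (limma adjusted p = 0.029) was lost without any 1 of KO1, KO2, WT1 and WT3 (limma adjusted p between 0.057 and 0.14). The POLA2 call was also lost without the variance trend and without both WT1 and KO3 (limma adjusted p = 0.13 and 0.083). POLA2 shares 35.1% of its exon bases with another gene on the same strand.

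Polymerase epsilon copies the leading strand. POLE, its catalytic subunit, had 8786, 8335 and 8832 in KO cells, against 10121, 10746 and 10397 in WT cells (log2 fold change -0.27, SE 0.0429, limma adjusted p = 2.2e-05). POLE2, its second subunit, had 948, 920.0 and 915 in KO cells, against 664, 676 and 619 in WT cells (log2 fold change 0.51, SE 0.0627, limma adjusted p = 9.2e-07). Both pairs of groups were separate and went in opposite directions. For polymerase delta, which copies the lagging strand, POLD1 as the catalytic subunit had 12025, 10732 and 12117 in KO cells, against 13374, 14800.2 and 14901 in WT cells (log2 fold change -0.31, SE 0.0529, limma adjusted p = 5.6e-05). POLD3, an accessory subunit, had 2249.6, 2395 and 2352 in KO cells, against 2186, 2069 and 1913 in WT cells (log2 fold change 0.18, SE 0.0539, limma adjusted p = 0.0064). As in polymerase epsilon, the catalytic subunit was lower and an accessory subunit higher in KO cells. The POLD3 call was lost without the variance trend (limma adjusted p = 0.063), and POLD4, another accessory subunit, was lower (log2 fold change -0.59). POLD2 had the smallest change of the polymerases, with 16120.1, 15938 and 15629 in KO cells, against 15735, 17551 and 15764 in WT cells (log2 fold change -0.039, 95% interval -0.14 to 0.059), and its groups overlapped.

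PCNA, the sliding clamp that tethers polymerases to DNA, is among the most abundant of these mRNAs. It had 11376, 11973 and 11255 in KO cells, against 13146, 12551 and 12349 in WT cells (log2 fold change -0.14, SE 0.0433, limma adjusted p = 0.01). Its KO libraries were all below its WT libraries, but the difference was small. The call was lost without KO1, without KO3, without WT1 and with equal library totals (limma adjusted p = 0.058, 0.071, 0.052 and 0.079). It was also lost without the variance trend (limma adjusted p = 0.071) and without both WT1 and KO3 (limma adjusted p = 0.22). The clamp loader is made of RFC1 to RFC5. RFC4, a small subunit, had 3485, 3528 and 3586 in KO cells, against 4704, 4557 and 4228 in WT cells (log2 fold change -0.35, SE 0.047, limma adjusted p = 3.1e-06). RFC1, the large subunit, had 4076, 4245 and 4199 in KO cells, against 5066, 4831 and 4661 in WT cells (log2 fold change -0.22, SE 0.0449, limma adjusted p = 3.5e-04). RFC3, a small subunit, had 1609, 1687 and 1598 in KO cells, against 1371, 1342 and 1207 in WT cells (log2 fold change 0.32, SE 0.0574, limma adjusted p = 7.6e-05). Thus RFC1 and RFC4 were lower and RFC3 higher in every KO library than in any WT library. RFC5 had 1513, 1574 and 1442 in KO cells, against 1494, 1459 and 1497 in WT cells, with overlap and a log2 fold change of 0.024 (95% interval -0.086 to 0.13), and RFC2 had 0.025 (95% interval -0.076 to 0.13). GENCODE 29 lists 3 pseudogenes named after PCNA and 1 each named after RFC3 and RFC5, so reads of these genes could be split between near-identical copies.

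Replication protein A coats single-stranded DNA at the fork. RPA3, its smallest subunit, had 1949, 2052 and 1910.3 in KO cells, against 1454, 1397 and 1208 in WT cells (log2 fold change 0.55, SE 0.0631, limma adjusted p = 3.8e-07), the highest log2 fold change of the 48 genes. RPA1, the large subunit, had 2134, 2271 and 2150.4 in KO cells, against 2098, 1941 and 1878 in WT cells (log2 fold change 0.15, SE 0.0527, limma adjusted p = 0.02). RPA3 libraries were far apart, whereas those of RPA1 nearly touched. The RPA1 call was lost without KO2, WT2 or WT3 (limma adjusted p = 0.096, 0.051 and 0.077) and without the variance trend (limma adjusted p = 0.092). RPA2 had 1837, 1875 and 1818 in KO cells, against 2108, 1914 and 1945 in WT cells, lower in each KO library without passing the test (log2 fold change -0.11, limma adjusted p = 0.074). It passed without WT2 (-0.14, limma adjusted p = 0.041) and narrowly with TMM scaling (-0.12). FEN1, the flap nuclease that trims Okazaki fragments, had 6348, 6431 and 6570.2 in KO cells, against 5893, 5911 and 5603 in WT cells (log2 fold change 0.15, SE 0.0423, limma adjusted p = 0.0042). LIG1, the ligase that seals them, had 3666, 3553 and 3625 in KO cells, against 4373, 4540.0 and 4327 in WT cells (log2 fold change -0.29, SE 0.0432, limma adjusted p = 1.1e-05). The nuclease was thus higher and the ligase lower in KO cells, with no overlap in either gene.

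Ribonucleotide reductase makes the deoxynucleotides for DNA synthesis. RRM2 (chr2:10120698-10131419), the small subunit that is made in S phase, had 4379.5, 4465 and 4219 in KO cells, against 7902, 7695 and 7363 in WT cells (log2 fold change -0.81, SE 0.044, limma adjusted p = 6.9e-12). RRM1, the large subunit, had 5513, 5839 and 5734 in KO cells, against 6579, 6324 and 6175 in WT cells (log2 fold change -0.16, SE 0.0435, limma adjusted p = 0.0038). Both were lower in every KO library, RRM2 by much more than RRM1. The ratio of RRM1 to RRM2 was 1.26 to 1.36 in KO libraries and 0.822 to 0.839 in WT libraries, a pair chosen after its values were seen. RRM2 has 3 pseudogenes named after it in GENCODE 29 and shares 20.2% of its exon bases with another gene on the same strand. The call on RRM1 was lost when WT1 and KO3 were both left out (limma adjusted p = 0.063).

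The regulators of S phase entry held the second of the large changes. E2F2 (chr1:23506430-23531220), a transcriptional activator of replication genes, had 970.4, 904 and 840.5 in KO cells, against 2498, 2707 and 2372 in WT cells (log2 fold change -1.48, SE 0.0622, limma adjusted p = 1.7e-13). E2F1 (chr20:33675683-33686404), its close relative, had 2865, 2708 and 2852 in KO cells, against 4168, 4586 and 4037 in WT cells (log2 fold change -0.60, SE 0.051, limma adjusted p = 5.2e-09). Both carry E2F matches in the printed stretches, and both were lower in KO cells. Among all matched promoters such matches were about as frequent in higher genes (7 of 13) as in lower genes (8 of 16). E2F1 stood at 2.95 to 3.39 times E2F2 in KO libraries against 1.67 to 1.70 times in WT libraries, again a pair chosen after its values were seen. CCNE1, cyclin E1, which activates CDK2 at the start of S phase, was higher, with 1671, 1658 and 1736 in KO cells, against 1274, 1289 and 1265 in WT cells (log2 fold change 0.40, SE 0.0507, limma adjusted p = 1.1e-06). CCNE2, cyclin E2, was the least abundant gene of the set, with 127, 116 and 140.5 in KO cells, against 152, 144 and 142 in WT cells. Its libraries did not overlap, but it did not pass the test (log2 fold change -0.19, 95% interval -0.47 to 0.08), and 37.0% of its exon bases are shared with INTS8 on the opposite strand.

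**Figure D3:**
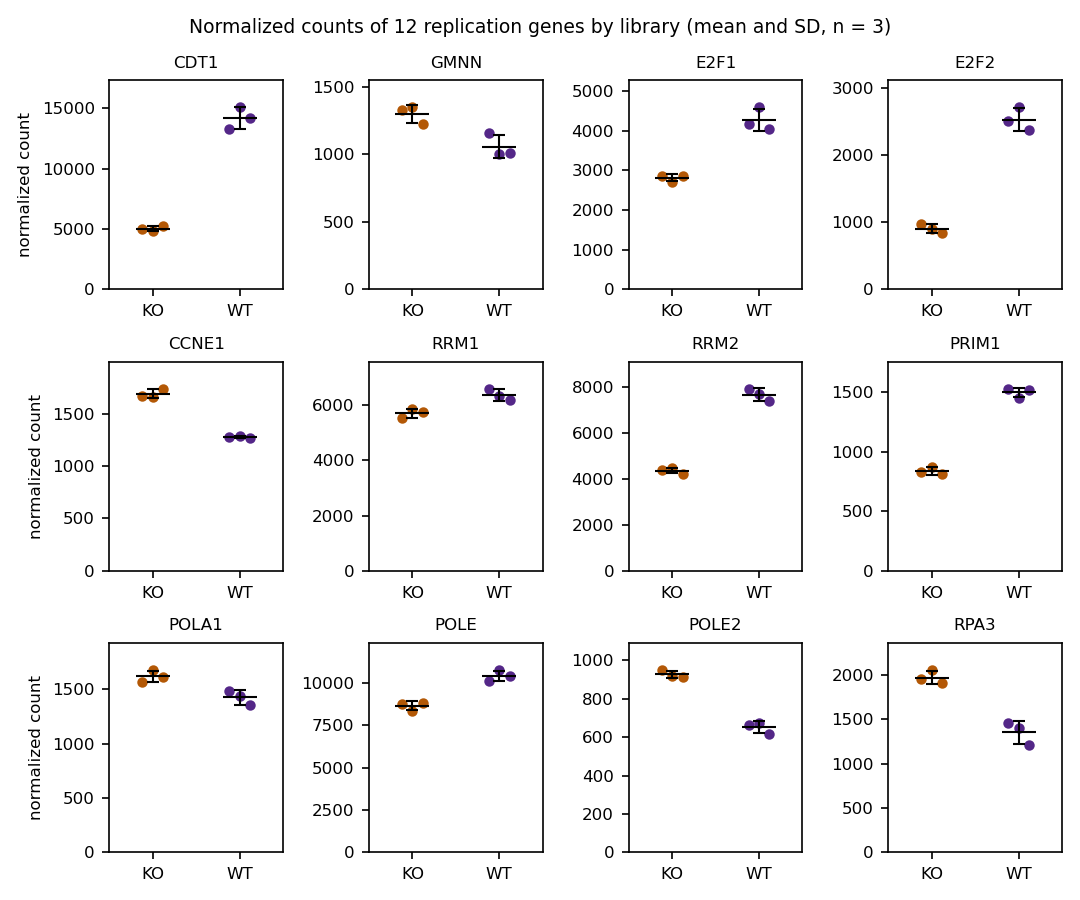
Normalized counts of 12 replication genes in the 3 KO libraries (left) and the 3 WT libraries (right). Points are libraries, horizontal marks are means and bars are SD (n = 3), and each vertical axis starts at 0. The 12 genes were chosen for display. KO and WT libraries did not overlap in any of them, against no overlap in 65.2% of all genes tested. CDT1 and E2F2 in KO cells had means of 0.354 and 0.358 of the WT means.

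Other genes of the pathway were read from lists of non-members, and the highest mean count of a list is taken without correction for length. Origin firing needs the DDK kinase, TOPBP1 and treslin. In its list 2 of 12 genes were higher, 4 were lower and 6 did not pass, beside 30.3% of all genes in each direction. MCMBP, a chaperone of MCM rings, was the most changed, with 1987, 2046 and 2101 in KO cells, against 3888, 3649.8 and 3559.5 in WT cells (log2 fold change -0.85, SE 0.0484, limma adjusted p = 1.4e-11). DONSON, which helps to deliver GINS, was lower too, with a log2 fold change of -0.40, limma adjusted p = 8.7e-06. RECQL4, with the highest mean count of the list, had a log2 fold change of -0.26, limma adjusted p = 2.9e-04. Chosen after their values were seen, CDC7 and DBF4, the kinase and the activator that form DDK, were higher (log2 fold changes 0.32 and 0.21, limma adjusted p = 2.6e-05 and 0.0049), DBF4 not without the variance trend (limma adjusted p = 0.061).

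Fork protection and accessory factors had 8 of 18 genes higher, 3 lower and 7 that did not pass, beside 30.3% of all genes in each direction. Their median log2 fold change was 0.11. RNASEH2B, a subunit of the RNase H2 that removes ribonucleotides from DNA, had 9612, 10323 and 9908 in KO cells, against 5315, 5264 and 4921 in WT cells (log2 fold change 0.95, SE 0.0451, limma adjusted p = 1.2e-12). RNASEH2C, another subunit, had 7828, 7616 and 8114 in KO cells, against 4639, 4995 and 5012 in WT cells (log2 fold change 0.69, SE 0.0452, limma adjusted p = 1.3e-10). The catalytic subunit RNASEH2A did not pass (log2 fold change -0.11, limma adjusted p = 0.067), but passed as lower without WT3 and with TMM scaling (limma adjusted p = 0.024 and 0.04). TOP1, the topoisomerase that relaxes DNA ahead of the fork and the gene with the highest mean count of the list, had a log2 fold change of 0.51, limma adjusted p = 3.4e-09. The small subunits of polymerase epsilon, POLE3 and POLE4, were higher as POLE2 was (log2 fold changes 0.59 and 0.58, limma adjusted p = 1.2e-09 and 3.4e-09), whereas POLD4 of polymerase delta was lower (-0.59, limma adjusted p = 3.4e-07). RNASEH2A, POLE3, POLE4 and POLD4 were chosen after their values were seen.

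In nucleotide supply, 4 of 12 genes were higher, 3 were lower and 5 did not pass, beside 30.3% of all genes in each direction. TK1, thymidine kinase of the salvage pathway, fell as RRM2 did, with 1351, 1436 and 1434 in KO cells, against 3255, 3572 and 3366 in WT cells (log2 fold change -1.27, SE 0.0509, limma adjusted p = 8.3e-14). NME1, a nucleoside diphosphate kinase, had 15911, 16613 and 16329 in KO cells, against 7340.1, 7445 and 6288 in WT cells (log2 fold change 1.22, SE 0.0543, limma adjusted p = 4.0e-13). TK1 was lower and NME1 higher in every KO library, by more than 2-fold in each gene. DUT, the dUTPase and the gene with the highest mean count of the list, had a log2 fold change of 0.20, limma adjusted p = 6.1e-04. TYMS, thymidylate synthase, named after its values were seen, did not pass (log2 fold change -0.079, limma adjusted p = 0.14), though it passed as lower without WT3 (limma adjusted p = 0.023).

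Chromatin copying behind the fork had 3 of 10 genes higher and 3 lower, beside 30.3% of all genes in each direction. ASF1A and ASF1B, paralogous histone chaperones, went opposite ways (log2 fold changes 0.45 and -0.44, limma adjusted p = 8.4e-07 and 2.2e-06). NASP, with the highest mean count of the list, did not pass (log2 fold change 0.053, limma adjusted p = 0.27), but passed as higher with equal library totals (0.11, limma adjusted p = 0.0076).

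Of the E2F and pocket protein genes, 5 of 15 were higher, 4 were lower and 6 did not pass, beside 30.3% of all genes each way. TFDP2, a dimerization partner of E2F proteins, had 10236, 10169.9 and 10340.4 in KO cells, against 4404, 4453 and 4130.1 in WT cells (log2 fold change 1.24, SE 0.043, limma adjusted p = 9.6e-15). TFDP1, the other partner and the gene with the highest mean count of the list, had 9464, 9801 and 9674 in KO cells, against 6524, 6659 and 6346 in WT cells (log2 fold change 0.57, SE 0.0412, limma adjusted p = 5.4e-10). Both partners were higher in every KO library, while the E2F1 and E2F2 mRNAs were lower. Of the genes chosen after their values were seen, E2F3, E2F4 and E2F5 had log2 fold changes of 0.12, 0.26 and 0.32 (limma adjusted p = 0.031, 4.4e-04 and 0.0029), and E2F8, a repressor, had -0.49, limma adjusted p = 8.0e-06. The call on E2F3 was lost without KO2, KO3 or WT2 (limma adjusted p = 0.097, 0.099 and 0.086) and without the variance trend (limma adjusted p = 0.077). Without both WT1 and KO3 the calls on E2F3 and E2F5 were lost (limma adjusted p = 0.084 and 0.055). RB1 itself, chosen in the same way, did not pass (log2 fold change -0.094, limma adjusted p = 0.19).

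Among cyclins, CDKs and turnover factors, 4 of 15 genes were higher, 4 were lower and 7 did not pass. Over all genes tested, 30.3% were higher and 30.3% lower. CCND3, a D-type cyclin that drives G1 with CDK4 and CDK6, had 1670.3, 1793 and 1697 in KO cells, against 6325, 6843 and 5740.4 in WT cells (log2 fold change -1.87, SE 0.0565, limma adjusted p = 1.3e-15). CDK6 had 5743, 5702 and 5767 in KO cells, against 3286, 3300.2 and 3111 in WT cells (log2 fold change 0.83, SE 0.0432, limma adjusted p = 4.2e-12). The cyclin was lower and its kinase higher in KO cells, with wide gaps between the groups. CCND2, with the highest mean count of the list, had a log2 fold change of -0.61, limma adjusted p = 1.1e-09. CDT1 protein is destroyed through the ubiquitin ligases of SKP2 and of CUL4A with DDB1 and DTL. Named for that role after their values were seen, SKP2, CUL4A and DDB1 were higher (log2 fold changes 0.71, 0.57 and 0.73, limma adjusted p = 4.9e-09, 1.9e-09 and 5.2e-10), and DTL did not pass (0.05, limma adjusted p = 0.48).

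Over these 6 lists together, 26 of 82 genes were higher, 21 were lower and 35 did not pass, beside 30.3% higher and 30.3% lower over all genes tested. Their median absolute log2 fold change was 0.203, beside 0.215 for the 48 replication genes and 0.389 for all genes tested. Log2 fold changes above 0.5 in absolute value were found in 26.8% of the 82 genes, against 40.2% of all genes.

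**Figure D4:**
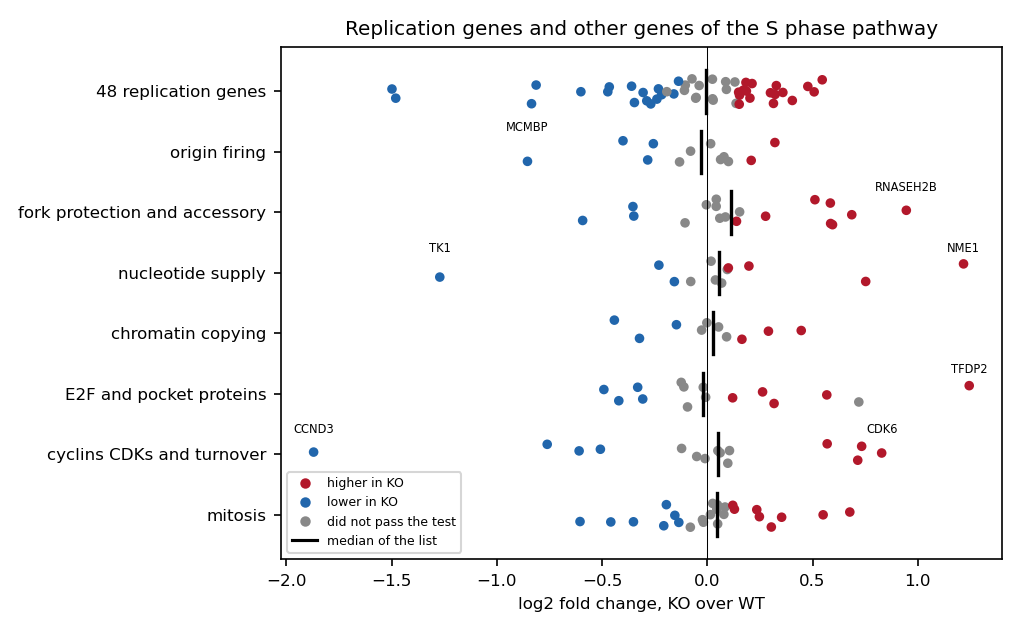
Log2 fold change, KO over WT, of single genes on the horizontal axis for the 48 replication genes and 7 lists of other S phase and mitosis genes. Each point is a gene, the vertical spread within a row is arbitrary, and the black line is the median of the list. Higher and lower genes flanked 0 in each list, and CCND3 (-1.87), TK1 (-1.27), NME1 (1.22) and TFDP2 (1.24) lay farthest out among the non-members.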

How the data were processed

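RNA-seq was carried out on 3 akirin2 KO and 3 WT libraries of HL60 cells. Trimmomatic 0.36, featureCounts of Subread 1.5.2, DESeq2 and the build GRCh38 are listed in the processing notes of the submitters. Which aligner, annotation and strand setting were used is not stated in the sources used here. In the deposited table the authors gave, per gene and library, a signal equal to the read count divided by a size factor of the library, and in each library 100% of values were whole multiples of 1 step (tolerance 0.01 reads). The deposited table also holds the log2 fold change and p-value columns of the authors' own comparison, which were not used.

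Values were analysed as log2(normalized count + 1) with limma 3.58.1 (R 4.3.3, lmFit and eBayes with trend, two-sided) over 17425 genes whose mean reached 10 normalized counts, without covariates, and Benjamini-Hochberg adjusted p under 0.05 was called. Because of the added 1, the change of genes with low counts comes out too small. The fit was tested on simulated data in which few genes were changed and the dispersion was the same for all genes. The real data differ in both, so that test does not measure how reliable the calls here are. Tables were handled with Python 3.11.15, pandas 2.3.3 and numpy 2.4.6. Coordinates and lengths are from GENCODE 29 (99.55% of genes matched), and promoters from RefSeq. Within each role group, values in every library were given for up to 3 called genes in each direction with the largest absolute log2 fold change and for the gene with the smallest. The other genes of the 48 were given by log2 fold change. For each other list the 2 called genes with the largest change and the gene with the highest mean count were named. Genes whose values go beyond this rule are marked as chosen after their values were seen. The 48 genes and the lists were chosen with earlier results of these data known. Alternatives covered the pseudocount (0.5 and 5), the minimum mean (none and 50), scaling, variance trend, transcript length, a replicate block and left-out libraries.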

Additional observations from a re-analysis of the deposited data

How the results depend on the processing

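Of the 34 called genes, 28 were called under all 16 alternatives, none reversed, and 6 (GINS3, POLA2, POLD3, PCNA, RPA1 and RRM1) lost the call under at least 1. Of the 14 others, 5 passed under at least 1. With equal library totals the median log2 fold change of the 48 genes was 0.0502 instead of -0.0073, the median of all genes moved by 0.0573, and 20 genes were higher and 16 lower. Without the variance trend 13 were higher and 16 lower. Leaving out libraries gave 14 to 17 higher and 15 to 18 lower genes, a median of -0.0414 to 0.0164 and an AKIRIN2 log2 fold change of -0.566 to -0.515. Of 32 called genes named from the other lists, 28 were called under all 16 alternatives (DBF4, E2F3, E2F5 and TOP2A were not). Among the genes named, signs turned only in genes that did not pass: with equal library totals MCM3 (0.002), PRIM2 (0.005) and POLD2 (0.019), without KO2 CDC6 (-0.013) and RFC5 (-0.006), without WT3 CDC6 (-0.009), RFC2 (-0.019) and DTL (-0.002), and without WT2 POLD2 (0.013). Over the left-out libraries CDC6 ran from -0.013 to 0.05, POLD2 from -0.066 to 0.013, RFC2 from -0.019 to 0.051, RFC5 from -0.006 to 0.057 and DTL from -0.002 to 0.107. The causes were not tested. Samples that shared a replicate number showed no shared deviation (correlations -0.0732, 0.0516 and -0.0754). With 3 libraries a group these correlations constrain one another and cannot settle whether the numbers pair samples. With a replicate block 17 genes were higher and 17 lower, while E2F3 was no longer called (limma adjusted p = 0.062). The planned count tests (edgeR and DESeq2) were not run. With 3 libraries a group, standard errors of 0.0398 to 0.13 on the log2 scale limit what could be detected.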

Other observations

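Mitosis genes, which are made after S phase, were read in the same way. Of 25 genes, 8 were higher in KO cells, 7 were lower and 10 passed in neither direction, beside 30.3% higher and 30.3% lower over all genes tested. Their median log2 fold change was 0.045, and their median absolute value was 0.135, beside 0.389 for all genes tested. UBE2C, the ubiquitin-conjugating enzyme of the anaphase-promoting complex, had 4424, 4591 and 4301 in KO cells, against 2741, 2845 and 2741 in WT cells (log2 fold change 0.68, SE 0.0449, limma adjusted p = 1.4e-10). AURKB, the kinase of the chromosomal passenger complex, had 1886, 1967 and 1964 in KO cells, against 2929, 3034 and 2886 in WT cells (log2 fold change -0.60, SE 0.0468, limma adjusted p = 1.4e-09). The 2 genes moved in opposite directions with no overlap between groups. TOP2A, with the highest mean count of the list (not corrected for length), had 25968, 27816 and 25517 in KO cells, against 24978, 24424 and 23117 in WT cells (log2 fold change 0.13, SE 0.0469, limma adjusted p = 0.024). Its call was lost without KO1 or KO2 (limma adjusted p = 0.053 and 0.15) and without the variance trend (limma adjusted p = 0.12). Singled out after its values were seen, MKI67, the widely used proliferation marker, had 9436, 9417 and 9770.0 in KO cells, against 11996, 12428 and 12078 in WT cells (log2 fold change -0.35, SE 0.0408, limma adjusted p = 4.1e-07), lower in every KO library.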
